A study of Mus musculus with 4 samples.

Results

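The genes described here are 7 genes of retinoid metabolism and signalling, Aldh1a1, Aldh1a2, Rbp4, Crabp1, Rarb, Rxrg and Cyp26b1, and 2 genes used as markers of meningeal fibroblasts, Ptgds and Dcn. They were chosen by symbol, and all 9 were found among the 15409 gene rows of the expression tables. RNA was sequenced from brain septal tissue of wild-type (WT) mice and of TCRb-/- mice, whose T cells cannot form the alpha-beta receptor. Every mouse of either genotype had been restrained for 30 min on 3 days in a DecapiCone, a cone-shaped plastic holder, and was killed 1.5 h after the last session, so there was no unstressed group. Each of the 4 libraries came from the pooled tissue of 4 to 5 mice, and each genotype had 1 library in experiment 1 (replicate 1) and 1 in experiment 2 (replicate 2). The RNA came from the supernatant of a homogenate that was spun, treated with detergent and spun again. The labels used here name no age, sex or strain background.

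Retinoic acid is made from vitamin A in 2 steps, and the second is carried out by retinaldehyde dehydrogenases such as those encoded by Aldh1a1 and Aldh1a2. Rbp4 encodes the carrier of retinol in plasma, Crabp1 a protein that binds retinoic acid in the cytoplasm, and Cyp26b1 an enzyme that degrades it. Inside the nucleus retinoic acid acts through pairs of a retinoic acid receptor, such as RAR beta from Rarb, and a retinoid X receptor, such as RXR gamma from Rxrg. In the adult forebrain Rarb and Rxrg are known for their high expression in the striatum, which borders the septum, while Aldh1a2 is known from the meninges. Ptgds encodes a prostaglandin D synthase that also carries lipophilic molecules and is made by meningeal cells, choroid plexus and oligodendrocytes, and Dcn encodes decorin, a small proteoglycan of connective tissue.

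The libraries held between 19988137 and 26210790 reads. Levels are given as CPM, read counts scaled to the library total, with the pool of experiment 1 before that of experiment 2 in each pair of values, and differences on the log2(CPM + 1) scale, which understates changes of low genes. Trbc2, which encodes a constant region of the missing beta chain, had no read in either TCRb-/- library (3 reads would be 0.122 and 0.150 CPM) and stood at 6.45 and 3.85 CPM in the WT pools. The 11 septum markers were all listed, at a summed 248 to 294 CPM. TCRb-/- replicate 2 stood apart. It was the lowest library for 17 of 17 striatum genes, against 31.7% of the 13912 genes tested. The summed striatum list was at 7590 and 1757 CPM in the TCRb-/- pools, and at 6747 and 3879 CPM in WT. The 19 choroid plexus genes summed to 2201 and 7036 CPM in TCRb-/- and to 1347 and 4282 CPM in WT. In experiment 2 both pools were lower in the striatum list and higher in the choroid plexus list than both pools of experiment 1. Results are therefore given per library, and those that rest on TCRb-/- replicate 2 are given without it as well. In bulk tissue, fewer cells of a type and less RNA per cell cannot be told apart. Exact 95% intervals cover counting error only.

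Per kilobase of annotated exon, the order of the 9 genes over the 4 libraries ran from Ptgds at 403 ± 22.6 CPM per kb (SD, n = 4) to Cyp26b1 at 0.177 ± 0.0748. Rxrg was second at 51.9 ± 21.8 CPM per kb, and its lowest library lay above the highest of Rarb. The length used for Rarb, 5265 bases, includes 1793 that it shares with Top2b, a gene on the opposite strand. If reads there were left uncounted, the Rarb values per kb are too low and this separation may not hold. Rarb (14.7 ± 7.61), Crabp1 (11.5 ± 3.91), Rbp4 (8.40 ± 4.56) and Aldh1a1 (5.68 ± 1.53 CPM per kb) followed, and each of these overlapped its neighbour in the order. Aldh1a2 (1.32 ± 0.624) and Dcn (0.987 ± 0.239 CPM per kb) overlapped each other and lay below Aldh1a1 and above Cyp26b1 in every library. On average the receptor genes thus stood above the genes for synthesis and breakdown, and of the meningeal markers Dcn was far below Ptgds.

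**Figure D1:**
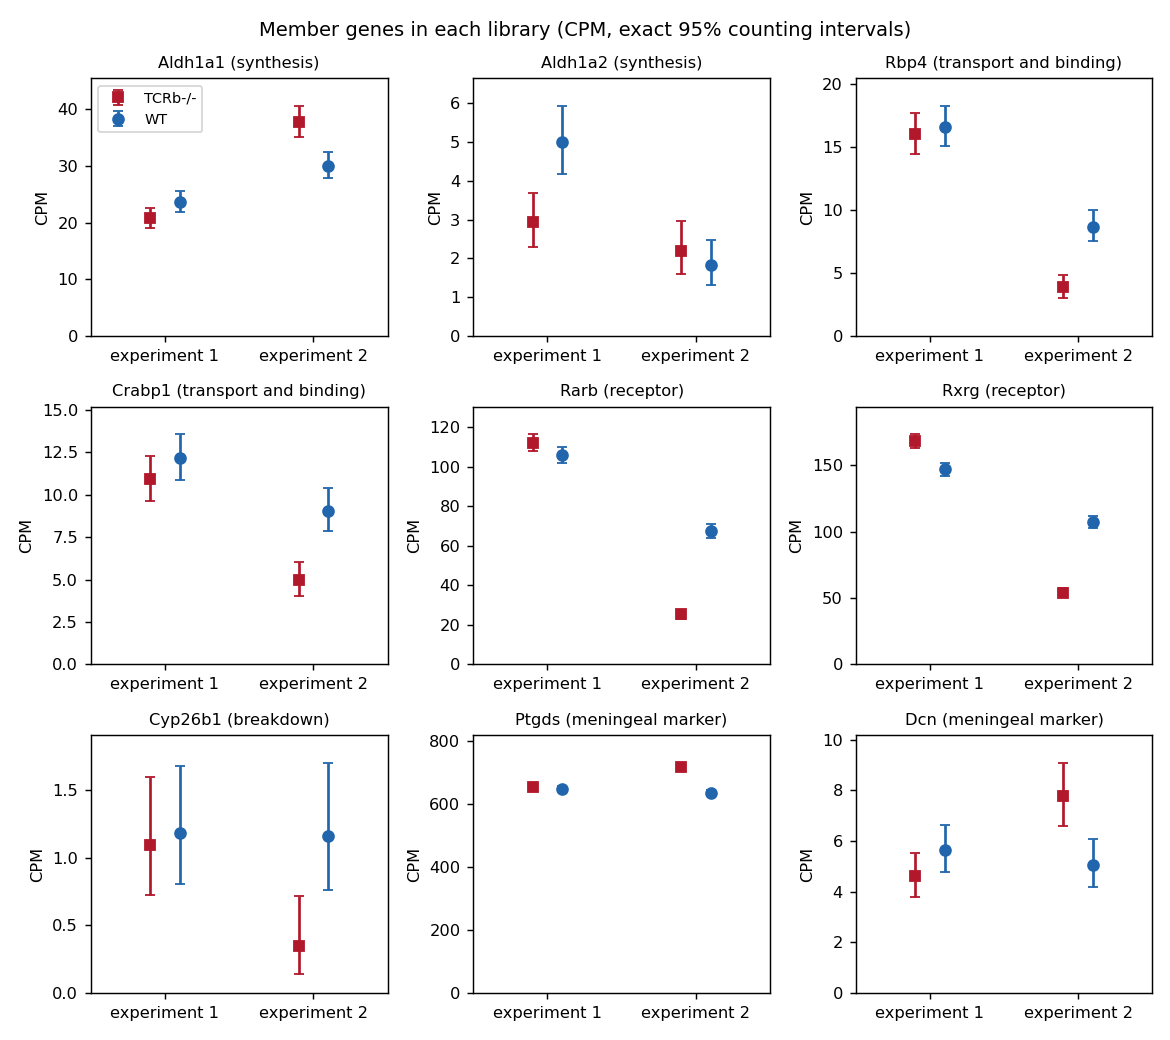
Level of each of the 9 genes in CPM (vertical axis, from 0) by experiment (horizontal axis), with TCRb-/- pools as squares and WT pools as circles, 1 library each. Bars are exact 95% intervals of the read count. Rarb, Rxrg, Rbp4, Crabp1 and Cyp26b1 were lowest in the TCRb-/- pool of experiment 2, while Ptgds stayed between 635 and 719 CPM.

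The comparison of genotypes sets septal tissue of mice without alpha-beta T cells against that of WT mice. None of the retinoid or meningeal genes passed the test. Of the 8 that reached a mean of 1 CPM, which is the filter for testing, limma called 0 between TCRb-/- and WT (adjusted p under 0.05), and 0 had an unadjusted p under 0.05. Across all genes it called 0 of 13912 as well (0%), with 43 (0.309%) at an unadjusted p under 0.05. With the experiment as a block, 3 of the 8 (Rbp4, Crabp1 and Rarb) had an unadjusted p under 0.05, against 5.64% of all genes, and again 0 passed the adjusted threshold, against 2 (0.0144%) of all genes, of which 1 was lower (0.00719%), Trbc2, and 1 higher (0.00719%), Ttr. Genotype intervals and adjusted p-values given per gene below are from the fit without the block unless stated. In that fit the difference between experiments counts as spread within a genotype. The genotypes did not overlap for 1 of the 8, Ptgds, against 17.8% of all genes. The genotype difference had opposite signs in the 2 experiments for 5 of the 8, against 48.4% of all genes, which is near the background. The median difference was -0.30 (log2) over the 8 and 0.00 over all genes. In experiment 2, 5 of the 9 genes, the untested Cyp26b1 included, were lower and 4 higher in TCRb-/-. In experiment 1, 6 were lower and 3 higher. Over all genes tested the median difference was 0.004 (log2) in experiment 2 and 0.007 in experiment 1, and splits this close to even say little about the members. For 1 gene in 2 pools against 2, the smallest p of an exact two-sided permutation test is 0.333, and nothing says that pools of 1 genotype share no litter or cage, so p-values measure only the spread between these pools.

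Of the synthesis genes, Aldh1a1 rose in experiment 2, while Aldh1a2 did not pass the threshold. Aldh1a1 (chromosome 19, 20492715 to 20643465 in GRCm38, a protein-coding gene) had 20.7 and 37.8 CPM in the TCRb-/- pools and 23.7 and 30.1 CPM in WT. Both pools of experiment 2 lay above both of experiment 1. The rise from experiment 1 to 2 was 0.58 (log2, SE 0.13, limma adjusted p 0.0182), and it was 0.42 without TCRb-/- replicate 2 (adjusted p 0.0563) and 0.49 without TCRb-/- replicate 1 (0.0853). By genotype Aldh1a1 differed by 0.07 (SE 0.31, adjusted p 1.00 in limma), being lower in TCRb-/- by 0.18 in experiment 1 and higher by 0.32 in experiment 2. Aldh1a1 is also known from dopamine neurons of the midbrain, and 5 of 10 genes of a dopamine neuron list were listed. They summed to 70.1 and 98.9 CPM in TCRb-/- and 71.0 and 100.5 CPM in WT, highest in experiment 2 like Aldh1a1. Th, which encodes the enzyme that starts dopamine synthesis, rose by 0.68 (SE 0.09, adjusted p 0.00534 in limma), and Ddc by 0.50 (0.0129). Slc18a2 (0.15, limma adjusted p 0.413) and En2 (-0.18, 0.517) did not pass, so the list did not rise as a whole. Slc6a3, the dopamine transporter gene, stayed under 1 CPM, and En1, Pitx3, Foxa1, Foxa2 and Lmx1b were not among the listed rows. The part of these cells in the Aldh1a1 values was not tested.

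Aldh1a2 (chromosome 9, 71215789 to 71296243) had 2.93 and 2.20 CPM in the TCRb-/- pools and 5.00 and 1.83 CPM in WT, from 41 to 131 reads. The WT pool of experiment 1 was high and the exact intervals of TCRb-/- replicate 2 and WT replicate 2 overlapped that of TCRb-/- replicate 1. The exact interval of the high library (4.18 to 5.93 CPM) did not reach that of TCRb-/- replicate 1 (2.29 to 3.69 CPM). The difference between experiments was -0.69 (log2, SE 0.23) and did not pass the threshold (limma adjusted p 0.0651), although the experiments did not overlap. Among the settings run it passed only without TCRb-/- replicate 1, at -0.99 (adjusted p 0.0476). By genotype the difference was -0.22 (95% interval -1.20 to 0.77, adjusted p 1.00 in limma), made of -0.61 in experiment 1 and 0.18 in experiment 2.

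Of the transport and binding genes, Rbp4 fell between experiments. Rbp4 (chromosome 19, 38116629 to 38125281) had 16.0 and 3.85 CPM in the TCRb-/- pools and 16.6 and 8.68 CPM in WT. Both libraries of experiment 1 stood near the same level, and TCRb-/- replicate 2 was 0.444 times its WT partner. The difference of experiment 2 from experiment 1 was -1.34 (log2, SE 0.28, limma adjusted p 0.0161), and it was -0.84 without TCRb-/- replicate 2 (adjusted p 0.00295). It lost its call without TCRb-/- replicate 1 (-1.36, adjusted p 0.0644) and without WT replicate 1 (-1.31, 0.0682). By genotype Rbp4 differed by -0.52 (95% interval -2.12 to 1.07, adjusted p 1.00 in limma), which was -0.05 in experiment 1 and -1.0 in experiment 2. With the experiment as a block its 95% interval was -1.02 to -0.03, with an adjusted p of 0.848 in limma.

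Crabp1 (chromosome 9, 54764748 to 54773110) had 10.9 and 4.95 CPM in the TCRb-/- pools and 12.1 and 9.03 CPM in WT. It was again lowest in TCRb-/- replicate 2, and the experiments did not overlap. Its difference between experiments, -0.69 (log2, SE 0.23), did not pass the threshold in limma (adjusted p 0.0661) but passed with the genotype in the model as a replicate block (adjusted p 0.0249). It was -1.07 without WT replicate 2 (adjusted p 4.84e-04) and -0.32 without TCRb-/- replicate 2 (adjusted p 0.247), so that its size rested on that library. By genotype it differed by -0.45 (95% interval -1.37 to 0.48, adjusted p 1.00 in limma), with -0.14 in experiment 1 and -0.75 in experiment 2. With the experiment as a block its 95% interval was -0.85 to -0.05, with an adjusted p of 0.848 in limma.

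Both receptor genes fell between experiments, and the highest library of Rarb was 4.42 times its lowest, the widest range of the 9 genes. Rarb (chromosome 14, 16430839 to 16819156) had 112 and 25.4 CPM in the TCRb-/- pools and 106 and 67.4 CPM in WT. The TCRb-/- pool of experiment 1 was 1.06 times its WT partner, and TCRb-/- replicate 2 was 0.377 times WT replicate 2. Rarb fell by 1.37 (log2, SE 0.36) from experiment 1 to experiment 2 (limma adjusted p 0.0301). The fall was 0.64 between the WT pools and 2.1 between the TCRb-/- pools. Without TCRb-/- replicate 2 the difference was -0.69 (adjusted p 3.52e-04), and without TCRb-/- replicate 1 or WT replicate 1 the call was lost (-1.33 and -1.41, adjusted p 0.110 and 0.0947). Rarb shares 1793 of its 5265 exon bases with Top2b, a topoisomerase gene on the opposite strand. Reads there may have been counted for either gene or for neither. Top2b stood at 29.2 and 34.0 CPM in TCRb-/- and 34.8 and 34.3 CPM in WT, without the Rarb pattern.

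Rxrg (chromosome 1, 167598384 to 167639623) had 168 and 54.1 CPM in the TCRb-/- pools and 147 and 107 CPM in the WT pools. TCRb-/- replicate 2 was the low library here too, at 0.504 times its WT partner, whereas in experiment 1 the TCRb-/- pool was the higher one. Rxrg fell by 1.03 (log2, SE 0.26, limma adjusted p 0.0274) between experiments. Without TCRb-/- replicate 2 the difference was -0.55 (adjusted p 0.00256), and the call was lost without TCRb-/- replicate 1 (-0.94, 0.113) or WT replicate 1 (-1.13, 0.0722). By genotype, Rarb differed by -0.65 (95% interval -2.36 to 1.07) and Rxrg by -0.39 (-1.71 to 0.93), both with an adjusted p of 1.00 in limma. With the experiment as a block the 95% intervals were -1.28 to -0.02 for Rarb and -0.90 to 0.12 for Rxrg (adjusted p 0.848 and 0.873 in limma). In experiment 1 both were higher in TCRb-/- (0.08 and 0.19) and in experiment 2 both were lower (-1.37 and -0.98). Without TCRb-/- replicate 1, TCRb-/- replicate 2 was set alone against both WT pools, and the difference was -1.70 for Rarb and -1.20 for Rxrg. Without TCRb-/- replicate 2 both were higher in TCRb-/- (0.40 and 0.42). Each of these fits sets 1 pool of 1 experiment against WT pools of both, so genotype and experiment are mixed in it.

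**Figure D2:**
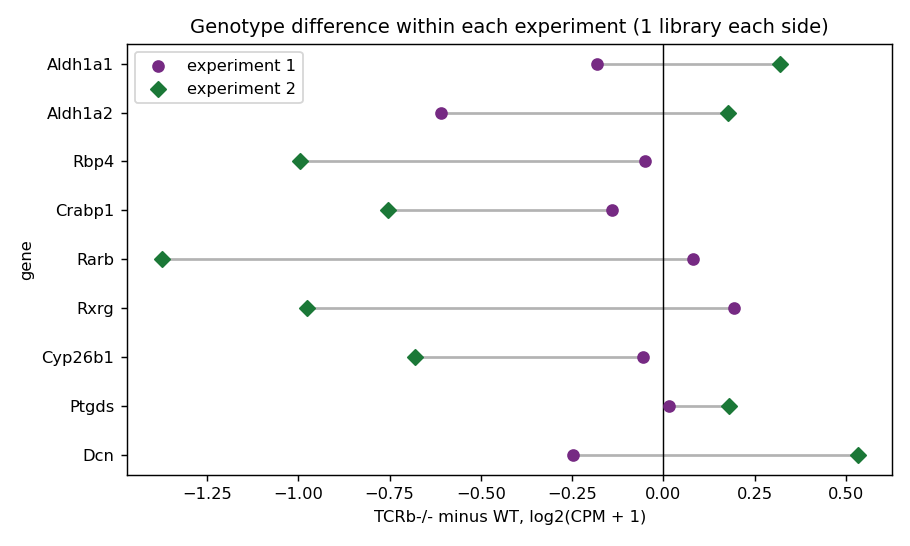
Difference of TCRb-/- from WT on the log2(CPM + 1) scale (horizontal axis) for each of the 9 genes (rows), with 1 library on each side in experiment 1 (circles) and experiment 2 (diamonds). Rarb, Rxrg and Rbp4 lay near 0 in experiment 1 and at -1.37, -0.98 and -1.0 in experiment 2, and Dcn and Aldh1a1 moved from below to above 0.

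The promoter windows of the 9 genes were read for the hexamers that retinoid receptors are known to bind. The windows run from 250 bases before to 50 bases after a RefSeq gene start (GRCm38.p6), and all of the 9 genes but Dcn had at least 1, with 11 windows in all. The hexamers searched were AGGTCA and its variants AGTTCA, next GGGTCA, and GGTTCA, on both strands, alone or as direct repeats of any 2 of them with 1, 2 or 5 bases between. A repeat was found only in Rarb, with 5 bases between the hexamers, 53 to 37 bases before the start. That spacing was present in 0.0975% of 32817 windows, against 0.222% for a spacing of 1 base and 0.268% for 2 bases. A single hexamer is common, being present in 43.7% of windows, and the Rarb window held 3, the 2 of the repeat included. The Rarb stretch below, on the minus strand, lies in an exon that GENCODE M21 annotates as UTR of a longer Rarb transcript. It is shown for the repeat, and the windows of Rxrg and Rbp4, the other genes that fell, and of Crabp1 are shown as far as the gene start for comparison. Capitals mark the hexamers on either strand, and all are written in the gene's own direction.
Rarb, chr14:16575506-16575535, minus strand: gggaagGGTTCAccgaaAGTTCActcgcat
Rxrg, chr1:167598112-167598361, plus strand: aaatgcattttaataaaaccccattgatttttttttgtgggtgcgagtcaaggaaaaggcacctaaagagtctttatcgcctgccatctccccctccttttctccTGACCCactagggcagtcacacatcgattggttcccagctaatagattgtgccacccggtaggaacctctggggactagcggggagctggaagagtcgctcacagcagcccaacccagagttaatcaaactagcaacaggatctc
Rbp4, chr19:38125322-38125571, minus strand: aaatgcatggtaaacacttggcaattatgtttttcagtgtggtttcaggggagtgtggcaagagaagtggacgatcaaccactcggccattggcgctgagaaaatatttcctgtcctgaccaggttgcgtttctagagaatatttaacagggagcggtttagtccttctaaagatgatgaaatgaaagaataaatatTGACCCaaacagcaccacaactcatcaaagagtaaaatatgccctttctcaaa
Crabp1, chr9:54764498-54764747, plus strand: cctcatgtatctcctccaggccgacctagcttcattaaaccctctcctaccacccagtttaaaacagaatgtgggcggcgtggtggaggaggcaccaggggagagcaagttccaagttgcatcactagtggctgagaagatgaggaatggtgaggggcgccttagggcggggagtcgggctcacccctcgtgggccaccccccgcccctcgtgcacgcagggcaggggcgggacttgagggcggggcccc

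In these windows Rxrg and Rbp4 had 1 single hexamer each and Crabp1 had 0. The second RefSeq window of Rxrg, not shown, had 2 single hexamers and that of Rbp4 had 0. A match in letters is no evidence of binding, and the absence of a match says only that these letters are not in the window.

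The drop of Rarb, Rxrg and Rbp4 in TCRb-/- replicate 2 was set beside the striatum list, markers of the neighbouring tissue. The list was chosen with earlier results of these data known, so its fall is a description and no independent support. Of its 17 genes limma called 16 lower in experiment 2, against 14.7% of all genes, and 0 higher, with a median difference of -1.42 (log2) against -0.03 over all genes. Drd1, the D1 dopamine receptor gene, had 167 and 25.7 CPM in TCRb-/- and 146 and 81.3 CPM in WT. Per 1000 CPM of the summed striatum list, a scale chosen after the values were seen, Rarb was at 14.8 and 14.4 CPM in the TCRb-/- pools and at 15.7 and 17.4 CPM in WT. The highest was thus 1.20 times the lowest, against 4.42 times for the unscaled level. Rbp4 was at 2.11 and 2.19 in TCRb-/- and 2.46 and 2.24 in WT, a range of 1.17 times against 4.31 times unscaled. Rxrg was at 22.1 and 30.8 in TCRb-/- and 21.8 and 27.7 in WT, 1.41 times against 3.11 times. Crabp1 kept a wider relative range of 1.96 times, against 2.45 times unscaled, being highest relative to the list in TCRb-/- replicate 2 at 2.82. The range of Cyp26b1 narrowed as well, from 3.38 to 2.07 times. The same scale widened the range of Aldh1a1 from 1.82 to 7.86 times and that of Ptgds from 1.13 to 4.73 times. It also widened that of Aldh1a2 from 2.73 to 3.25 times and that of Dcn from 1.69 to 7.29 times. The list itself was lowest in TCRb-/- replicate 2, so dividing by it tends to narrow the range of any gene that is low there. The striatum list was not the only one to fall. The 7 cortex and hippocampus genes summed to 224 and 47.7 CPM in TCRb-/- and 280 and 49.9 CPM in WT (6 of 7 called lower), and the 10 genes of mural cells, the contractile cells of vessels, to 73.8 and 33.9 CPM in TCRb-/- and 65.9 and 37.6 CPM in WT (4 of 8 tested called lower). The comparison by mean profile covered 7 lists and left out those of septum, of ependymal cells, and of cortex and hippocampus. Among the 7, the striatum list was nearest to Rarb (root-mean-square difference 0.09, log2), Rbp4 (0.12) and Rxrg (0.23). The mural list was nearest to Crabp1 (0.22) and Aldh1a2 (0.27). The dopamine neuron list was nearest to Aldh1a1 (0.19) and Dcn (0.20), the endothelial cell list to Ptgds (0.09) and the oligodendrocyte list to Cyp26b1 (0.27). The meningeal fibroblast list was not the nearest to either meningeal marker, at 0.23 from Dcn and 0.10 from Ptgds, so nearness does not name a cell source. Whether the share of any of these tissues sets the levels of these genes was not tested.

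**Figure D3:**
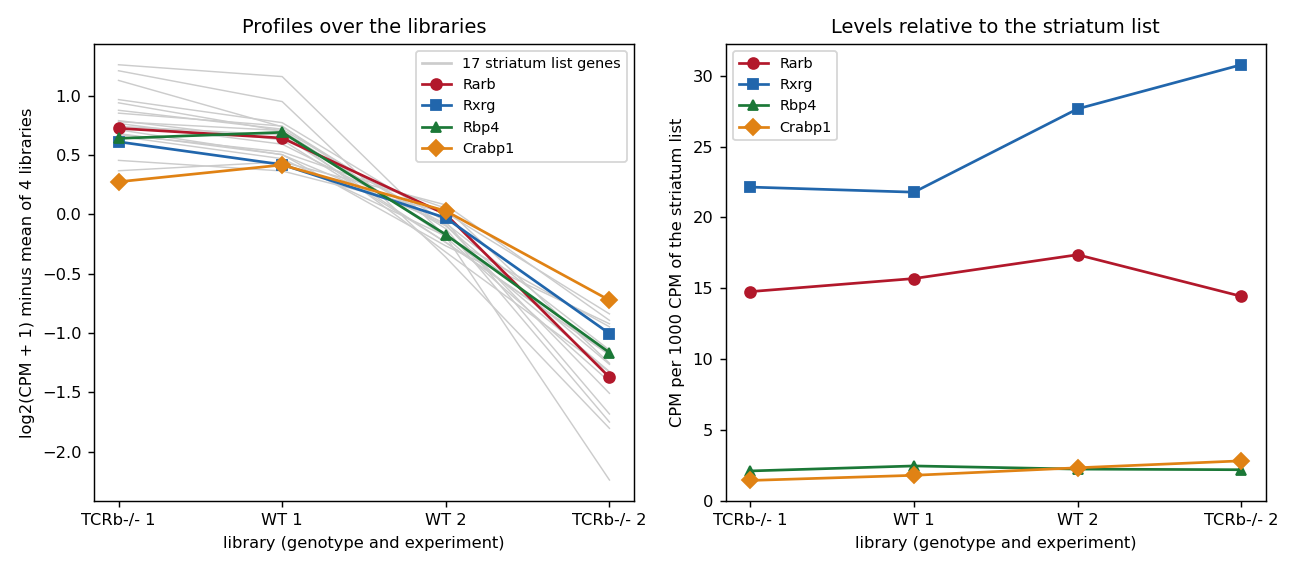
Left, log2(CPM + 1) of Rarb, Rxrg, Rbp4 and Crabp1 (coloured) and of the 17 striatum list genes (grey), each minus its mean over the 4 libraries. Right, CPM of the same 4 genes per 1000 CPM of the striatum list, where Rarb lay between 14.4 and 17.4 and Rbp4 between 2.11 and 2.46. The horizontal axis gives the library by genotype and experiment, and lines join the values of 1 gene.

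By profile, the genes nearest to each variable member were sought among 11292 genes that averaged 5 CPM or more, as the root-mean-square difference of log2(CPM + 1) after centring over the 4 libraries. Nearest to Rarb were Crym (0.06), Gpr6 (0.08) and Arpp21 (0.09). Nearest to Rxrg were Gprin3 (0.05), Pdyn (0.06) and Mctp1 (0.06), and nearest to Rbp4 were Bcl11b (0.06), Igfbp6 (0.08) and Kcnq5 (0.08). Gpr6 and Bcl11b are on the striatum list. Crabp1 was nearest to Mn1 (0.02), Klf5 (0.05) and Npy (0.05), and Aldh1a2 to Med13 (0.09), Pik3c2b (0.09) and Lrrc47 (0.11). Crym, the nearest to Rarb, had 261 and 65.5 CPM in the TCRb-/- pools and 244 and 154 CPM in the WT pools. With 4 libraries many genes share such a profile, and these distances describe the libraries only.

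Cyp26b1, the breakdown gene (chromosome 6, 84571414 to 84593908), was at the edge of detection, with 27 and 7 reads in the TCRb-/- pools and 31 and 26 reads in WT. These are 1.10 and 0.350 CPM in TCRb-/- and 1.18 and 1.16 CPM in WT. The exact intervals of the other 3 libraries overlapped, and that of TCRb-/- replicate 2 (0.141 to 0.722 CPM) lay below those of the others. The genotypes did not overlap, but its mean of 0.948 CPM kept it out of the main test. In the fit without that filter it differed by -0.37 by genotype (SE 0.26, adjusted p 1.00 in limma) and by -0.32 between experiments (SE 0.24, adjusted p 0.357). Cyp26a1, the related enzyme gene, was lower still, at 0.610 and 0.10 CPM in TCRb-/- and 0.725 and 0.134 CPM in WT.

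Of the meningeal markers, Ptgds was the steadiest member. Ptgds (chromosome 2, 25466709 to 25470046) had 656 and 719 CPM in the TCRb-/- pools and 649 and 635 CPM in the WT pools. Both TCRb-/- pools lay above both WT pools, by 0.02 (log2) in experiment 1 and 0.18 in experiment 2. The genotype difference of 0.10 (95% interval -0.22 to 0.42, adjusted p 1.00 in limma) did not pass the threshold, nor did that between experiments (0.05, SE 0.08, adjusted p 0.667). Among the other cells that make Ptgds, the 13 oligodendrocyte genes summed to 9673 to 11437 CPM, with Mbp, a myelin gene, at 3930 and 3371 CPM in TCRb-/- and 3190 and 3493 CPM in WT. The 19 genes of choroid plexus, the other source named above, summed to 2201 and 7036 CPM in TCRb-/- and 1347 and 4282 CPM in WT. The part of either in the Ptgds values was not tested. Dcn (chromosome 10, 97479609 to 97518143) had 4.60 and 7.75 CPM in the TCRb-/- pools and 5.65 and 5.05 CPM in WT. TCRb-/- replicate 2 was the high library, and its exact interval (6.58 to 9.08 CPM) just overlapped that of WT replicate 1 (4.77 to 6.63 CPM). Dcn differed by 0.14 by genotype (95% interval -0.53 to 0.82, adjusted p 1.00 in limma) and by 0.26 between experiments (SE 0.21, adjusted p 0.395).

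Between experiments, 4 of the 8 tested members were called by limma, 3 lower and 1 higher in experiment 2, against 23.7% of all genes (14.7% lower and 8.95% higher). With the genotype as a replicate block 5 of the 8 were called (24.7% of all genes), 4 lower (15.4%) and 1 higher (9.29%). At an unadjusted p under 0.05 there were 6 of 8 without the block (39.2% of all genes) and 6 with it (39.7%). The median difference was -0.69 (log2) over the 8 and -0.03 over all genes. The 3 were Rbp4, Rarb and Rxrg, and the 1 was Aldh1a1. The count was 3 without TCRb-/- replicate 2, 1 without TCRb-/- replicate 1, 1 without WT replicate 1, 5 without WT replicate 2 and 0 with moderation that ignores the mean-variance trend. Over all 13912 genes the calls in the same settings were 1823, 1406, 1637, 3390 and 629, against 3292. The experiments did not overlap for 6 of the 8, against 67.3% of all genes, which is near the background. The share of higher calls among all calls was 37.8%, and 50.6% under quantile normalization, which changed the direction or the call of 0 members.

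The other genes of the pathway were taken from 3 lists of 40 genes for synthesis and release, uptake and binding, and receptors with their cofactors. Of these 34 were listed and 29 passed the filter. By genotype limma called 0 of the 29, with a median of 0.00 as over all genes. With the experiment as a block it called 1, Ttr (adjusted p 0.0323), the gene for transthyretin, which holds the Rbp4 protein in plasma. Ttr had 1204 and 4478 CPM in the TCRb-/- pools and 638 and 2591 CPM in the WT pools, a profile opposite in its experiment difference to that of Rbp4. Ttr is also on the choroid plexus list, of whose 19 genes limma called 18 higher in experiment 2 (median difference 1.29), against 8.95% of all genes. The part of that tissue in the Ttr values was not tested.

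Between experiments 11 of the 29 pathway genes passed the threshold in limma, 4 higher and 7 lower in experiment 2, against 23.7% of all genes called (8.95% higher and 14.7% lower). Their median was -0.10 against -0.03 over all genes. The 4 that rose were Ttr (1.96, log2), Rdh5 (1.34), a retinol dehydrogenase gene, Stra6 (0.56), the gene of the retinol uptake receptor that binds the Rbp4 protein, and Fabp5 (0.28), a carrier gene. Stra6 had 8.99 and 12.8 CPM in TCRb-/- and 6.71 and 11.2 CPM in WT. The 7 that fell were Crabp2 (-0.81), Rlbp1 (-0.38), the receptor gene Rxra (-0.42) and the receptor cofactor genes Ncoa1 (-0.53), Ncoa2 (-0.50), Ncoa3 (-0.66) and Nrip1 (-0.56). Rxra had 45.4 and 31.6 CPM in TCRb-/- and 41.5 and 32.6 CPM in WT, so that both pools of experiment 2 were low alike, unlike Rxrg. Of the receptors and cofactors 5 of 11 were called, all 5 lower, against 14.7% of all genes called lower. Of synthesis and release 1 of 11 was called, and of uptake and binding 3 rose and 2 fell of 7. Rdh10, for the first step of retinoic acid synthesis, had 11.2 and 13.5 CPM in TCRb-/- and 11.9 and 12.7 CPM in WT. Dhrs3, for the reverse step, had 15.9 and 14.2 CPM in TCRb-/- and 14.3 and 11.2 CPM in WT, and neither gene was past the threshold (adjusted p 0.351 and 0.260 in limma). Rara, a receptor gene, did not pass either (adjusted p 0.119 in limma). The count of 11 was 5 without TCRb-/- replicate 1, 7 without TCRb-/- replicate 2 and 7 without WT replicate 1. Of 7 further genes for breakdown and known targets 3 were listed, Cyp26a1, Tgm2 and Rarres1, and Tgm2 alone was tested, with a difference of -0.39 (adjusted p 0.176).

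**Figure D4:**
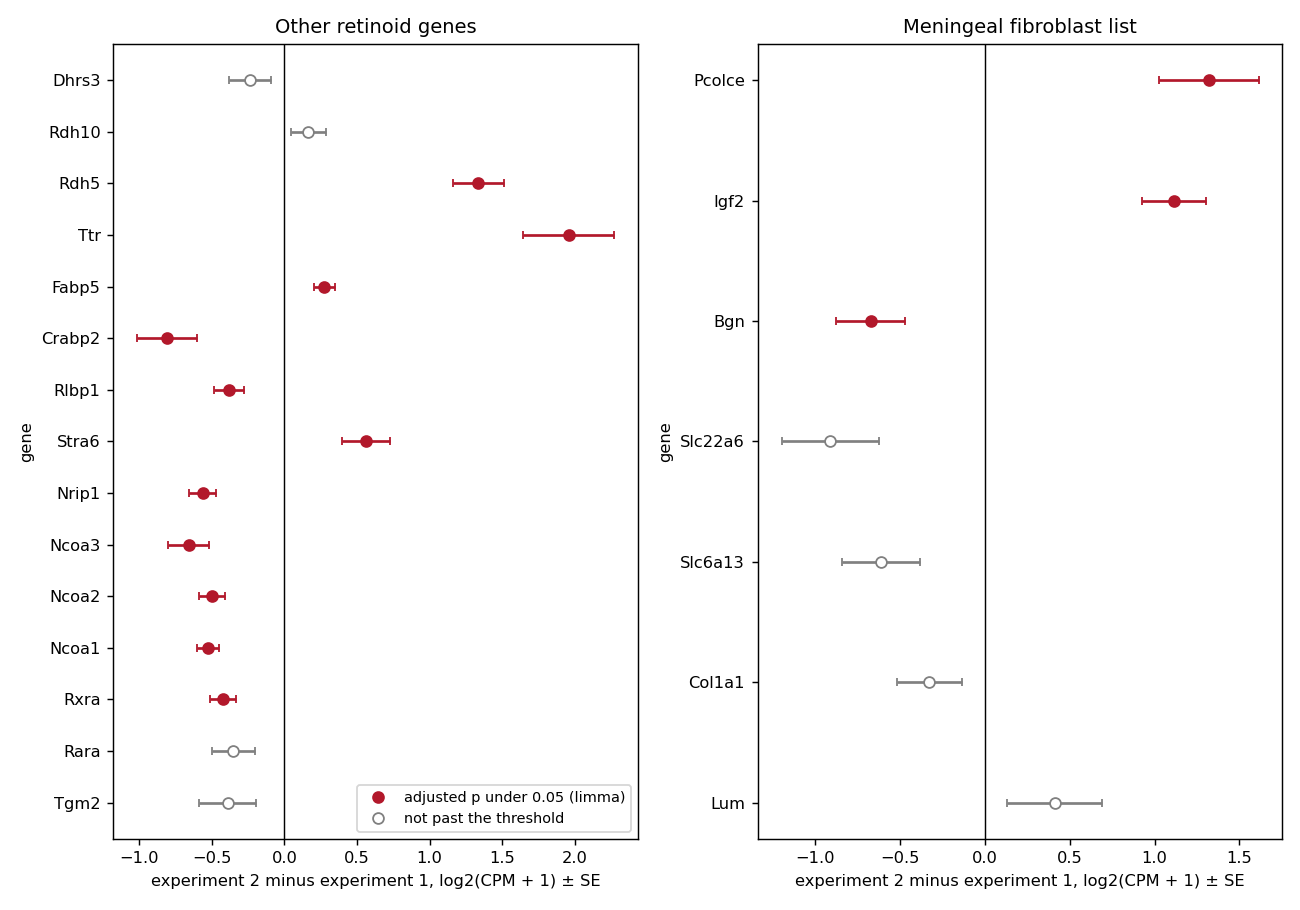
Difference of experiment 2 from experiment 1 on the log2(CPM + 1) scale (horizontal axis, bars are the SE from limma) for the retinoid genes outside the 9 (left) and the meningeal fibroblast genes (right) that passed the threshold or are given by name in the text; the other tested genes of the lists, none of which passed, are not drawn. Filled points passed an adjusted p of 0.05, and on the left Ttr (1.96) and Rdh5 (1.34) lay highest and Crabp2 (-0.81) lowest, while on the right Igf2 (1.11), Pcolce (1.32) and Bgn (-0.67) passed.

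The meningeal fibroblast list held 20 genes beside Ptgds and Dcn, of which 19 were listed and 18 tested. By genotype 0 of the 18 passed in limma with or without the block, with a median of 0.09 against 0.00 over all genes. The summed list was at 78.5 and 104 CPM in the TCRb-/- pools and at 76.3 and 79.6 CPM in WT, highest in TCRb-/- replicate 2. That order came from 2 genes, Igf2 and Pcolce, whose sum was highest where the choroid plexus list was highest. Igf2, a growth factor gene, had 15.7 and 36.2 CPM in TCRb-/- and 11.7 and 25.6 CPM in WT, and Pcolce, which encodes an enhancer of collagen processing, had 6.96 and 18.0 CPM in TCRb-/- and 3.59 and 11.0 CPM in WT. Without both, a choice made after the values were seen, the other 17 listed genes summed to 55.8 and 50.1 CPM in TCRb-/- and 61.1 and 42.9 CPM in WT, and the high library was WT replicate 1. The part of choroid plexus tissue in the Igf2 and Pcolce values was not tested. Between experiments 3 of 18 passed in limma, a share below the 23.7% of all genes, with Igf2 (1.11, adjusted p 0.00868) and Pcolce (1.32, 0.0182) higher and Bgn (-0.67, 0.0492), a proteoglycan gene, lower. The list median was -0.21. Lum, a proteoglycan gene related to Dcn, had 0.935 and 2.45 CPM in TCRb-/- and 0.954 and 0.939 CPM in WT, the same high library as Dcn. Slc6a13, a transporter gene of meningeal cells, had 2.36 and 1.85 CPM in TCRb-/- and 4.08 and 1.57 CPM in WT, highest in WT replicate 1 as was Aldh1a2. Slc22a6, an organic anion transporter gene named after its values were seen, had 1.10 and 0.500 CPM in TCRb-/- and 2.79 and 0.492 CPM in WT, with the same high library. Its difference between experiments was -0.91, at adjusted p 0.0534 in the unblocked limma fit and 0.0406 with the replicate block, so that 4 of the 18 passed in the blocked fit (2 higher and 2 lower). Col1a1, a collagen gene, had 1.67 and 1.35 CPM in TCRb-/- and 1.76 and 0.984 CPM in WT. Neither Lum, Slc6a13 nor Col1a1 passed the threshold in either comparison (adjusted p from 0.0902 to 1.00 in limma). The meningeal genes thus did not share 1 profile over the libraries, and whether WT replicate 1 held more meningeal tissue was not tested.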

How the data were processed

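Per the file headers, each deposited file holds 1 library with a gene symbol and a log2 value per row. The deposited values are log2 CPM of each read count plus 0.5 over the total plus 1, as the values themselves show: whole read counts were recovered for 100% of values within 0.001 reads. HISAT2 2.1.0, SAMtools 1.3, HTSeq 0.9.1, R 4.0.5, limma 3.46.0 and the build mm10 are named in the submitters' processing notes. Annotation, strand setting and row filter are not stated in these sources. Each file lists 15426 rows, of which 17 spike-in rows were left out.

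Recovered reads were expressed as CPM, and the 13912 genes averaging 1 CPM or more were tested with limma 3.58.1 in R 4.3.3 on log2(CPM + 1), with a mean-variance trend, two-sided, Benjamini-Hochberg adjusted over all of them at a threshold of 0.05. Genotype, or experiment, was the only term. In the labels a shared replicate number means a shared experiment, so numbers pair the samples (correlation of same-numbered deviations 0.719 across genes). A fit with the other factor as a replicate block was an alternative, beside other pseudocounts, filters, scalings and weights, and the omission of each library. The procedure was also run on simulated counts, in which only the factor tested differed. The genotype fit was thus not tried with a difference between experiments such as these data hold. The filter on low values passed 8 of 9 members. Exon lengths and coordinates are from GENCODE M21 (GRCm38), promoters from RefSeq (GRCm38.p6). Other tools were matplotlib 3.10.9, scipy 1.17.1, pandas 2.3.3, numpy 2.4.6 and Python 3.11.15. The members and gene lists were chosen with earlier results of these data known. Named are the members, list genes past the threshold or preset by name, Trbc2, and the 3 nearest profiles for members with a range of at least 1 (log2). Some genes that this rule names are not reported here.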

Additional observations from a re-analysis of the deposited data

Results flagged for a closer look

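The genotype difference had opposite signs in the 2 experiments for 5 of the 8 tested members, against 48.4% of all genes, which is near that background. Each difference rests on 1 library per genotype, so the change of the difference from experiment 1 to experiment 2 was not tested. It was 0.50 (log2) for Aldh1a1, 0.79 for Aldh1a2, -1.46 for Rarb, -1.17 for Rxrg and 0.78 for Dcn. TCRb-/- replicate 2 was the lowest library for Rarb and Rxrg and for all 17 striatum genes, against 31.7% of all genes. It was also the lowest for 5 of 7 cortex and hippocampus genes, 8 of 13 oligodendrocyte genes and 0 of 19 choroid plexus genes. Whether the share of any tissue sets these differences was not tested.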

How the results depend on the processing

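With all libraries, 10 alternatives were tried. With the replicate block, limma called 2 genes by genotype (0 without it), of which Ttr was the 1 other retinoid gene called, and Crabp1 passed between experiments. It changed no other call of a member, and Slc22a6 of the meningeal list also passed. Without a trend, 629 genes passed between experiments, 0 members and 4 other retinoid genes, and the cause was not tested. The sign of each member was kept wherever it had a value (Aldh1a2, Crabp1 and Dcn had none with a filter at 10 CPM).

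Leaving out a library unbalances the experiments, and the lone pool left is assumed to vary like the others. Called genes then ranged from 0 to 47 by genotype and from 1406 to 3390 between experiments, called members from 0 to 2 and from 1 to 5, and other retinoid genes from 5 to 11 between experiments. Differences that changed sign ranged, by genotype, from -0.35 to 0.49 for Aldh1a1, from -0.76 to 0.32 for Aldh1a2, from -1.43 to 0.38 for Rbp4, from -0.95 to 0.052 for Crabp1, from -1.70 to 0.40 for Rarb, from -1.20 to 0.42 for Rxrg and from -0.18 to 0.46 for Dcn, and between experiments from -0.039 to 0.14 for Ptgds, from -0.011 to 0.52 for Dcn and from -1.76 to 1.14 for Trbc2. Depth limits Cyp26b1 and Aldh1a2, since 1 read is worth 0.0382 to 0.05 CPM.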
